A study of Mus musculus with 4 samples.

Results

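Enteroendocrine cells are the scattered hormone-producing cells of the gut lining, and 10 genes of their products were examined across 4 arrays of mouse small intestinal epithelium. The genes were chosen by name, with earlier results of these data known. They encode 2 granins (Chga, Chgb), 7 peptide hormones (Gcg, Sct, Cck, Gip, Nts, Sst, Pyy) and Tph1, the enzyme that starts serotonin synthesis in the gut. They are 10 of the 18193 genes that a probe set named alone in the deposited table, and each was measured by 1 probe set, so that no second probe set could be set beside a value.

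The study compared mice lacking AP-1B with heterozygous mice. AP-1B is an epithelial clathrin adaptor that sorts proteins to the basolateral membrane, and Ap1m2 encodes its mu1B subunit. The labels gave 2 arrays of AP-1B+/- mice and 2 of AP-1B-/- mice, all of strain C57BL/6J, adult, 10 weeks old, healthy and specific pathogen-free. The arrays labelled heterozygous served as the control, since no wild-type sample was analysed here. The epithelium was loosened with 30 mM EDTA for 20 minutes and collected by hand with a needle, and total RNA was labelled with biotin. The labels do not say which length of small intestine was taken, what part of the gene was removed, or whether the arrays stand for separate animals. The p-values therefore measure the spread between arrays alone. The 2 arrays of each label had opposite sex patterns, given below, so they did not repeat the same animal. How many animals each array stands for is not known.

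Signals are linear MAS5 intensities in multiples of the array median. Of 45037 probe sets, 22519 were kept for testing, those whose mean over the 4 arrays reached 0.983, and all 10 enteroendocrine probe sets were among them. The number of arrays limits the precision. The Ap1m2 signal went against 2 labels. Named by label and replicate number, knockout 2 (22.2) and heterozygous 1 (19.9) had far more of it than heterozygous 2 (4.33) and knockout 1 (2.49). Every direction below is that of the labels, and these may not hold for heterozygous 2 and knockout 2. Xist and the Y-linked Eif2s3y gave both replicate 1 arrays a male and both replicate 2 arrays a female pattern, so sex was balanced between the labels. The 75th percentile of signal was 4.13 and 4.27 on heterozygous 1 and knockout 2, and 5.54 and 5.57 on heterozygous 2 and knockout 1. Bright genes therefore read higher on the latter pair in the deposited values, and results that this touches are also given after quantile normalization, which gives all arrays the same distribution. All 12 epithelial markers fixed for a check, such as Epcam and the keratin gene Krt8, were kept, with 3 lower and 9 higher by label and a median log2 difference of 0.07. After quantile normalization the median was 0.06. Of the 12, 0 were then lower and 3 higher on both arrays labelled knockout, beside 11.0% and 11.7% of kept probe sets.

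Enteroendocrine cells arise from crypt progenitors through the transcription factor Neurog3 and store peptides in dense granules that granins help to form. Prohormone convertases cut the precursors, and the granule content is released at the basolateral side toward blood, nerves and neighbouring cells. The hormones are regional: gastric inhibitory polypeptide (Gip), cholecystokinin (Cck) and secretin (Sct) are typical of the upper small intestine, and neurotensin (Nts), peptide YY (Pyy) and the proglucagon gene Gcg of the lower. Serotonin-producing enterochromaffin cells, which express Tph1 and Chga, are spread along the whole length.

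In the comparison of the labelled groups, 9 of the 10 genes had a lower mean on the log2 scale on the arrays labelled knockout, and Gcg was about equal. For 5 genes, Chga, Chgb, Sct, Cck and Nts, both arrays labelled knockout lay below both labelled heterozygous, by 28.3% to 56.2% in the group means. For the other 5, Gcg, Gip, Sst, Pyy and Tph1, the groups overlapped. None of the 10 passed the adjusted threshold of 0.05 by limma, a linear model fitted across all kept probe sets, nor did any of the 22519 (background 0.0%). At an unadjusted p under 0.05 there was 1 of the 10, Nts, against a background of 0.755%. In bulk RNA, fewer enteroendocrine cells and less hormone RNA per cell cannot be told apart.

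The median log2 difference of the 10 genes, knockout minus heterozygous, was −0.47, and that of all 11326 kept genes was 0.0. Of all kept genes, 49.4% had a difference below 0, and 9.01% lay at or below −0.47. Groups that did not overlap, with lower values on knockout, were found for 5 of 10 members and 10.7% of kept probe sets. In the higher direction there were 0 of 10, beside 6.56% of kept probe sets. The same 5 genes were lower on both arrays labelled knockout after quantile normalization, where the background was 11.0%, and after setting the 75th percentile of the arrays equal, where it was 11.9%. After quantile normalization some gaps to knockout 2 were small. For Chga heterozygous 2 had 11.3 and knockout 2 had 11.0. For Cck these arrays had 19.7 and 18.1, and for Chgb 71.9 and 66.1. For Sct heterozygous 1 had 22.5 and knockout 2 had 21.7.

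**Figure D1:**
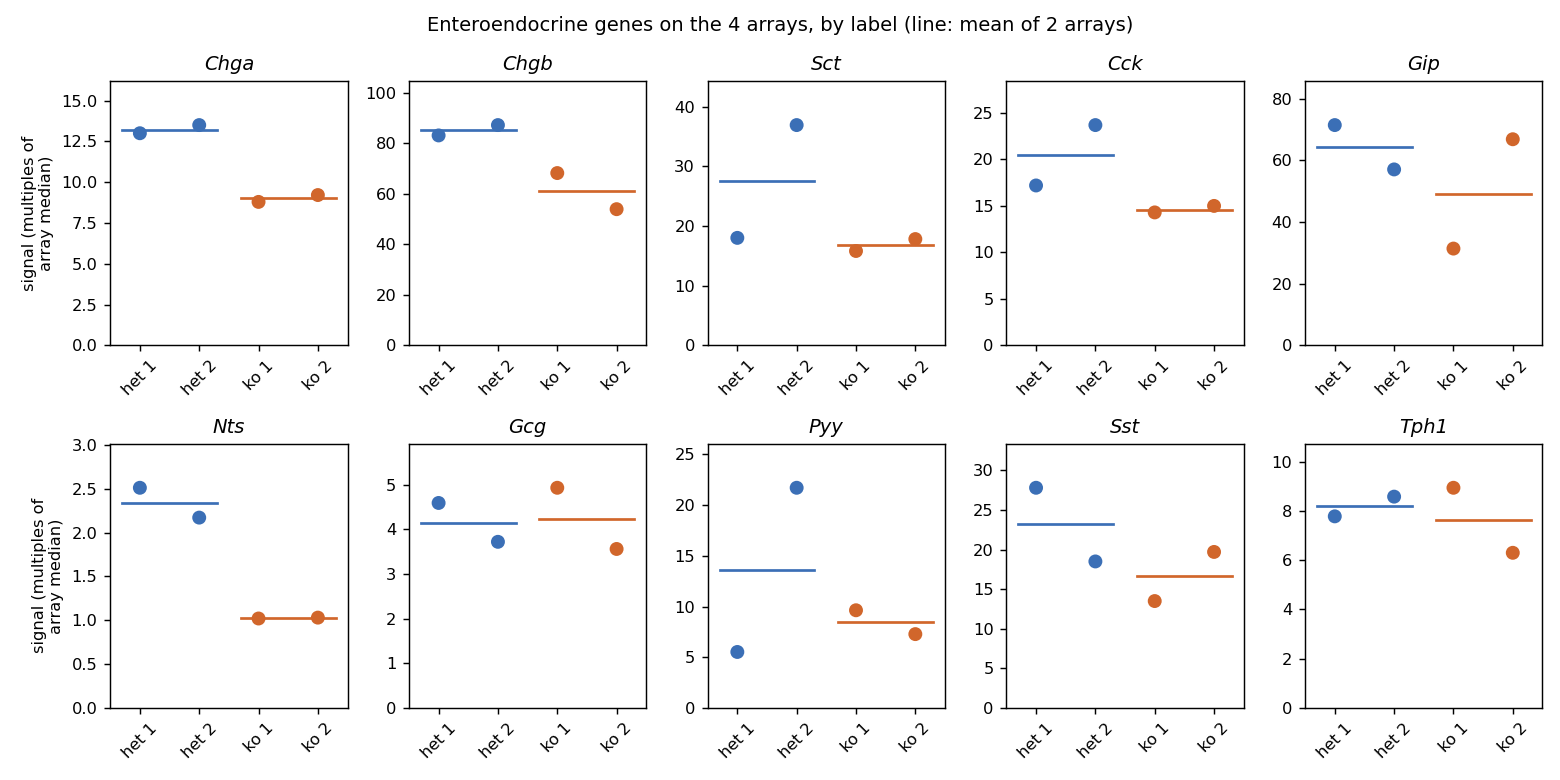
Signal of each of the 10 enteroendocrine genes on the 4 arrays, in multiples of the array median on a linear axis from 0; blue points are arrays labelled heterozygous (het), orange points arrays labelled knockout (ko), and lines are means of 2 arrays. In 5 panels (Chga, Chgb, Sct, Cck and Nts) both orange points lie below both blue points, and in the other 5 the colours overlap.

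Both granins were lower on the arrays labelled knockout. Chga encodes chromogranin A, an acidic granule protein used as a general marker of endocrine cells. Its signal (probe set 1418149_at) was 13.0 and 13.5 on heterozygous 1 and 2, and 8.79 and 9.21 on knockout 1 and 2. In these deposited values the arrays of each label lay close together, and the labelled groups were apart. After quantile normalization they were 16.3 and 11.3 against 7.53 and 11.0, so heterozygous 2 and knockout 2 were nearly equal and the arrays within a label far apart. The means were 13.2 ± 0.351 and 9.0 ± 0.294 (SD, n = 2 each). On the log2 scale Chga differed by −0.54 ± 0.52 (standard error; limma, adjusted p = 0.999907). That standard error exceeds the spread of the Chga values because limma shares the spread over all probe sets. With each array left out in turn, in the deposited values, the difference stayed between −0.57 and −0.51.

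Chgb encodes chromogranin B, a related granule protein. Its signal (1415885_at) was 83.1, 87.2, 68.2 and 53.9 for heterozygous 1 and 2 and then knockout 1 and 2, the order used from here on. Both arrays labelled knockout were lower. Of these knockout 2 was the lower in the deposited values, and knockout 1 (59.1 against 66.1) after quantile normalization. Heterozygous 2 then had 71.9, close to knockout 2. The means were 85.1 ± 2.93 and 61.1 ± 10.2 (SD, n = 2 each), with a log2 difference of −0.49 ± 0.50 (standard error; limma, adjusted p = 0.999907), which was −0.32 without knockout 2.

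Promoter sequences are shown for the 5 genes whose labelled groups did not overlap, and for Sst as a textbook case of control by cyclic AMP. Each is the run of 150 bases just before the RefSeq transcription start (GRCm38.p6), written 5′ to 3′ in the direction of the gene. Capitals mark matches, on either strand, to the core of the cAMP response element, TGACG, the E-box CANNTG bound by basic helix-loop-helix factors such as NeuroD1, or the TATA box TATAAA.
Chga (chr12:102554791-102554940, plus strand): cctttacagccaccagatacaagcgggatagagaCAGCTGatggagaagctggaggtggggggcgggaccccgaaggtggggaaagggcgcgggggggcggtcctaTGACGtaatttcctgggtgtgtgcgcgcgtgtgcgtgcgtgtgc
Chgb (chr2:132781492-132781641, plus strand): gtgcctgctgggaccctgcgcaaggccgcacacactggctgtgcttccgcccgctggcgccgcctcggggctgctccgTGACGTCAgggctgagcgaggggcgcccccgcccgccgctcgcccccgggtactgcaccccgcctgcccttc
Sst (chr16:23890845-23890994, minus strand): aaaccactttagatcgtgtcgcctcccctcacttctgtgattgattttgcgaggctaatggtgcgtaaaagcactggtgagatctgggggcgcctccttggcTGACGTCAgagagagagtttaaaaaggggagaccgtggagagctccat
Cck (chr9:121495695-121495844, minus strand): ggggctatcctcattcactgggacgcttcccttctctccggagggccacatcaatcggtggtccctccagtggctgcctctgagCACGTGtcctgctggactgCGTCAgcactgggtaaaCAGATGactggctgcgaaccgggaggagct
Sct (chr7:141279134-141279283, minus strand): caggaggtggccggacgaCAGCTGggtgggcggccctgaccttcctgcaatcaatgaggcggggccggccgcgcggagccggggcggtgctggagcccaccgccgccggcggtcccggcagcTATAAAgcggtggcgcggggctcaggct
Nts (chr10:102490419-102490568, minus strand): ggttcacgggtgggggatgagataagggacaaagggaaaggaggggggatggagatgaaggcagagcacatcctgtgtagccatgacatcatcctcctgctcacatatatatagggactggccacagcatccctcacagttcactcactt
The full cAMP response element TGACGTCA, which contains this core on both strands, was in the windows of Chgb (from position −72 relative to the start) and Sst (from −48), and in 1.36% of the 32851 promoter windows of that length. Chga and Cck held the core, from −44 and −47, as did 13.3% of all windows. Of the 12 windows of the 10 genes, 6 held the core, 7 an E-box (47.7% of all windows) and 2 a TATAAA (7.57%), those of Sct and Gcg. Nts, which had the lowest log2 difference, had no match to any of these letters in its window, and Sst, which has the full element, had groups that overlapped. A match is a description of the sequence and was not tested for binding.

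Among hormones of the upper small intestine, secretin, which stimulates bicarbonate secretion by the pancreas, had Sct signals (1418805_at) of 18.0, 36.9, 15.8 and 17.8. The groups were apart by little, since heterozygous 1 lay just above knockout 2, and heterozygous 2 stood far above the other arrays. The means were 27.5 ± 13.4 and 16.8 ± 1.45 (SD, n = 2 each), a log2 difference of −0.61 ± 0.58 (standard error; limma, adjusted p = 0.999907). Without heterozygous 2 the difference was −0.10, so most of its size came from that array.

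Cholecystokinin releases bile and pancreatic enzymes after fat and protein reach the duodenum. Cck (1419473_a_at) had 17.2, 23.7, 14.3 and 15.0, with both arrays labelled knockout below both labelled heterozygous. The means were 20.5 ± 4.62 and 14.6 ± 0.505 (SD, n = 2 each), and the log2 difference was −0.46 ± 0.55 (standard error; limma, adjusted p = 0.999907). Without heterozygous 2 it was −0.23. After quantile normalization the signals were 21.5, 19.7, 12.1 and 18.1, so knockout 2 lay close to heterozygous 2 and apart from knockout 1.

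Gip encodes an incretin, a hormone that raises insulin release after a meal. Its signal (1449908_at) was 71.5, 57.1, 31.4 and 66.9. Knockout 1 alone was low, and knockout 2 lay between the arrays labelled heterozygous. The log2 difference of −0.48 ± 0.56 (standard error; limma, adjusted p = 0.999907) became 0.06 without knockout 1.

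Of the hormones typical of the lower small intestine, neurotensin, a peptide that slows gut movement and aids fat uptake, differed most. Nts (1422860_at) had 2.51, 2.17, 1.02 and 1.03, so that both arrays labelled knockout were at the array median and both labelled heterozygous above it. The means were 2.34 ± 0.236 and 1.02 ± 0.00849 (SD, n = 2 each), a knockout to heterozygous ratio of 0.438. The log2 difference was −0.98 ± 0.43 (standard error; limma, unadjusted p = 0.0403, adjusted p = 0.999907), and it stayed between −1.07 and −0.89 with each array left out. No detection calls were used here, so whether a signal near the array median is above background is not known.

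Peptide YY, which reduces appetite, varied most between arrays of 1 label. Pyy (1424865_at) had 5.52, 21.7, 9.63 and 7.28, with heterozygous 1 the lowest and heterozygous 2 the highest array, 3.94 times apart. Both arrays labelled knockout lay between them, and the log2 difference of −0.38 ± 0.64 (standard error; limma, adjusted p = 0.999907) became 0.58 without heterozygous 2. The spread of Pyy over the 4 arrays exceeded that of 91.8% of kept probe sets.

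Gcg encodes proglucagon, from which intestinal cells cut the glucagon-like peptides. Its signal (1425952_a_at) of 4.59, 3.72, 4.93 and 3.56 had the smallest difference of the 10 genes, 0.02 ± 0.45 on the log2 scale (standard error; limma, adjusted p = 0.999907). Its spread over the arrays was larger than that of 13.6% of kept probe sets, and its 2 higher values were both on replicate 1 arrays. The sign of this difference turned under other scalings.

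Somatostatin, made by D cells, inhibits the release of many other gut hormones. Sst (1417954_at) had 27.8, 18.5, 13.5 and 19.7, with heterozygous 1 highest, knockout 1 lowest and the other two close together. The means were 23.2 ± 6.58 and 16.6 ± 4.40 (SD, n = 2 each), a log2 difference of −0.47 ± 0.56 (standard error; limma, adjusted p = 0.999907). It was −0.18 without heterozygous 1, −0.20 without knockout 1, −0.76 without heterozygous 2 and −0.74 without knockout 2.

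Tph1 encodes tryptophan hydroxylase 1, the rate-limiting enzyme of serotonin synthesis outside the brain. Its signal (1419524_at) was 7.78, 8.58, 8.94 and 6.30, with knockout 1 the highest and knockout 2 the lowest in the deposited values. After quantile normalization it was 9.53, 7.36, 7.63 and 7.45, with heterozygous 1 above the other arrays. The log2 difference was −0.12 ± 0.50 (standard error; limma, adjusted p = 0.999907), and the 4 deposited values differed by at most 1.42-fold. The deposited values of Chga, which enterochromaffin cells also express, were by contrast divided by label. After quantile normalization Chga had 16.3, 11.3, 7.53 and 11.0, with knockout 1 lowest. Both genes were then highest on heterozygous 1 and about equal on heterozygous 2 and knockout 2. The difference between both genes was not tested.

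**Figure D2:**
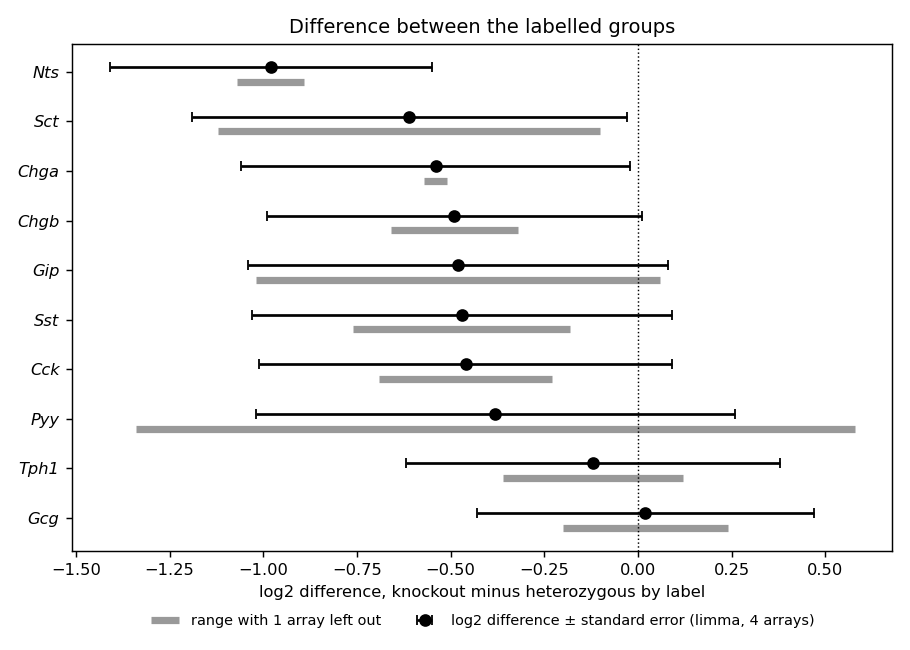
Log2 difference of the arrays labelled knockout minus those labelled heterozygous for each gene (points, with the standard error from limma on 4 arrays), and the range of that difference with 1 array left out in turn (grey bars). The grey bars of Gip, Pyy, Tph1 and Gcg cross 0, while those of Nts (−1.07 to −0.89) and Chga (−0.57 to −0.51) are short and lie below it.

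The arrays were also set in the order of their Ap1m2 signal, which was knockout 2, heterozygous 1, heterozygous 2 and knockout 1 from high to low. With 4 arrays, the pair holding the 2 highest values of a gene either shares a label, or shares the side of high or low Ap1m2, or shares a replicate number and so the sex pattern. Of the 10 genes, 5 were divided by label, as above. Gip and Sst were highest on the 2 arrays with more Ap1m2 (2 of 10, background 11.7%). Pyy and Tph1 were highest on the 2 arrays with less Ap1m2 (2 of 10, background 52.7%).

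Gcg was highest on both replicate 1 arrays (1 of 10, background 6.58%), and 0 of 10 were highest on both replicate 2 arrays (background 11.7%). The division by low Ap1m2 was thus the commonest over all kept probe sets, and 2 of the 10 enteroendocrine genes followed it. Quantile normalization lowered that background to 28.4% and left 0 of the 10 genes in it. Gip and Sst were again highest on heterozygous 1 and knockout 2, but that background rose with the scaling, to 27.7% with the 75th percentile of the arrays set equal, so 2 of 10 is no more than the background.

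**Figure D3:**
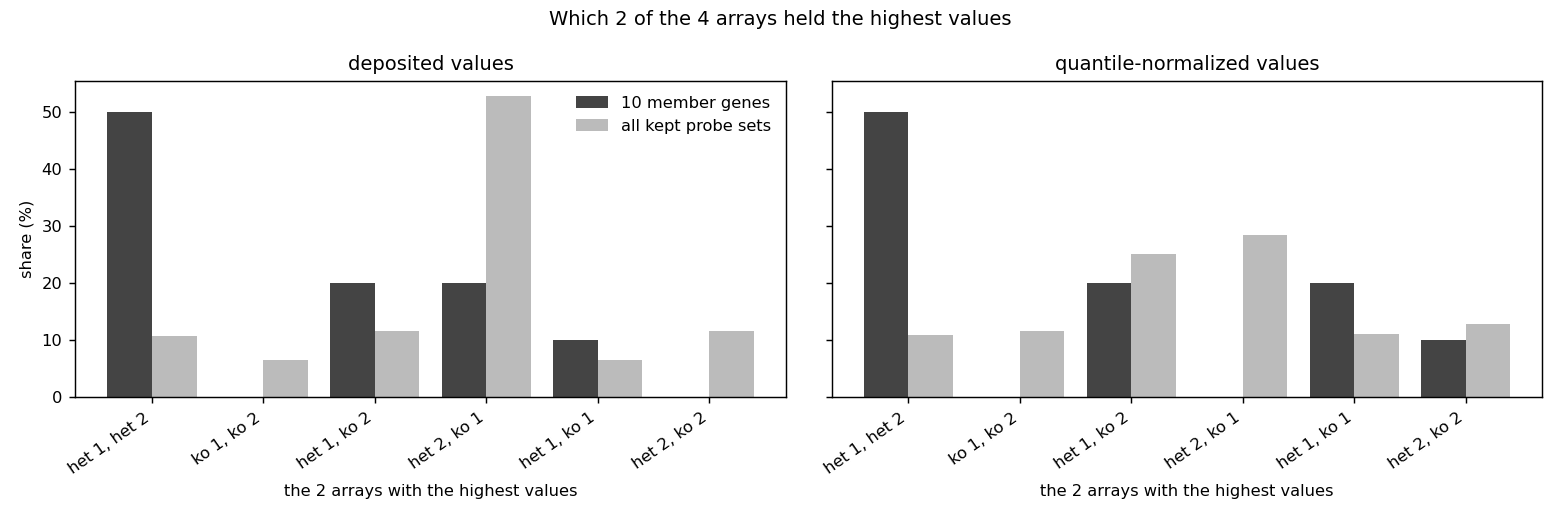
Share of the 10 enteroendocrine genes (dark bars) and of all 22519 kept probe sets (light bars) by which 2 of the 4 arrays held the highest values, for deposited and quantile-normalized values; het and ko stand for the labels. The pair het 1 and het 2 held the highest values for 5 of the 10 genes in both panels, beside 10.7% and 11.0% of kept probe sets.

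Arrays alike in Ap1m2 but of different label could be set side by side. Between knockout 2 and heterozygous 1, which both had a high Ap1m2 signal, 9 of the 10 genes were lower on knockout 2, with a median log2 difference of −0.31 beside 0.03 for all kept genes. Pyy was the exception, at 0.38. Between knockout 1 and heterozygous 2, both low in Ap1m2, 8 of the 10 were lower on knockout 1, with a median of −0.66 beside −0.02. Gcg (0.38) and Tph1 (0.06) were the exceptions.

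These 2 pairs are also alike in their distribution of signal, and quantile normalization left the medians at −0.38 and −0.63. Chga differed by −0.48 in the first pair and −0.60 in the second, Chgb by −0.62 and −0.35, and Nts by −1.07 and −0.90. Sct differed by −0.02 and −1.21, so it was about equal in the first pair. These are differences between single arrays and have no replicate check. Each pair also sets a replicate 1 array against a replicate 2 array, so label and sex pattern cannot be told apart within it. The array labelled knockout had the female pattern in the first pair and the male pattern in the second.

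Within the replicate numbers, and so within each sex pattern, the scaling mattered more. In replicate 1, 7 of the 10 genes were lower on the array labelled knockout, with a median of −0.27 while that of all kept genes was 0.40 and 28.6% of them were lower. In replicate 2, 8 of the 10 were lower, with a median of −0.59 while that of all kept genes was −0.40 and 79.6% of them were lower, so the count matched the background. After quantile normalization the medians were −0.77 (9 of 10 lower, beside 48.3% of all kept genes) and −0.08 (6 of 10 lower, beside 51.1%). The size of the difference within replicate 2 therefore depended on the scaling.

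The other genes of the hormone pathway were taken from lists named for function, which were written with earlier results of these data known, and 0 members of any list passed the adjusted threshold by limma. Counts of list genes whose labelled groups did not overlap are read against the backgrounds of 10.7% lower and 6.56% higher. Other gut peptides had 5 kept genes of 12 listed, with 4 lower, 1 higher and a median log2 difference of −0.33. Ghrl, the gene of the appetite hormone ghrelin, had 8.80, 9.68, 7.91 and 6.78, lower on both arrays labelled knockout. Tac1, the substance P gene of some enterochromaffin cells, had 6.81, 8.90, 16.8 and 5.90, with knockout 1 far above the rest.

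Prohormone processing and granule genes were lower at 8 of 9 kept genes, with a median of −0.34. The convertase gene Pcsk1, which cuts several gut prohormones, had 3.12, 2.68, 2.23 and 2.10, lower on both arrays labelled knockout, though not with the 75th percentile of the arrays set equal. Cpe, the carboxypeptidase that trims the cut peptides, had 6.32, 11.8, 7.84 and 5.49, with groups that overlapped. Groups did not overlap for 2 lower genes (Pcsk1 and the granin Scg3, which was picked after its values were seen) and 1 higher gene of the 9. After quantile normalization there were 5 lower and 1 higher, and with 75th percentile scaling 4 and 1, Cpe and Scg3 among the lower in both.

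The transcription factors of the lineage were divided in direction. Of 8 kept genes, 5 were lower and 3 higher by label, with a median of −0.15, and groups did not overlap for 0 lower and 1 higher gene, Foxa2 (1.81, 2.77, 3.38 and 3.85). Neurog3, which commits progenitors to the endocrine fate, had 1.84, 2.07, 3.33 and 1.75, highest on knockout 1. Neurod1, which acts after it, had 4.64, 1.82, 3.05 and 2.13, with the replicate 1 arrays above the replicate 2 arrays. Among list genes not kept, Lmx1a and Pax6 were lower on both arrays labelled knockout, and Neurod2 and Prox1 higher. These were picked after their values were seen, and lay near or below the array median. Whether this list differs from the hormone genes was not tested.

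Amine handling genes had a median of −0.18 over 10 kept genes, 6 lower and 4 higher. Ddc, which makes serotonin from the product of Tph1 and is also abundant in absorptive cells, had 205, 178, 93.5 and 181, lowest on knockout 1. The vesicular amine transporter gene Slc18a1, picked after its values were seen, had 2.75, 4.63, 1.88 and 2.58. It was the 1 gene of this list that was lower on both arrays labelled knockout. Regulated secretion genes had a median of −0.03 over 13 kept genes, 7 lower and 6 higher. Of these 4 were lower and 0 higher on both arrays labelled knockout, and 3 and 1 after quantile normalization. Nutrient sensing genes had a median of −0.35 over 6 kept genes of 16 listed, 4 of them lower. Among these the glucose transporter gene Slc5a1 had 312, 281, 119 and 308, low on knockout 1 alone.

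Receptors for these hormones were mostly dim, with 3 of 24 listed genes kept (Sctr, Htr3a and Sstr2), and their median was 0.16. Peptidases that degrade the hormones were lower at 7 of 8, with a median of −0.49. The brightest, Mep1b, had 285, 356, 217 and 252, and was the 1 gene of the 8 that was lower on both arrays labelled knockout. The aminopeptidase gene Anpep had 203, 137, 46.7 and 190, and Enpep had 215, 110, 74.0 and 152, both lowest on knockout 1. Dpp4, which inactivates glucagon-like peptide and gastric inhibitory polypeptide, was neither preset nor among the 3 brightest. It had 73.8, 65.3, 25.5 and 68.9, with knockout 1 alone low.

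**Figure D4:**
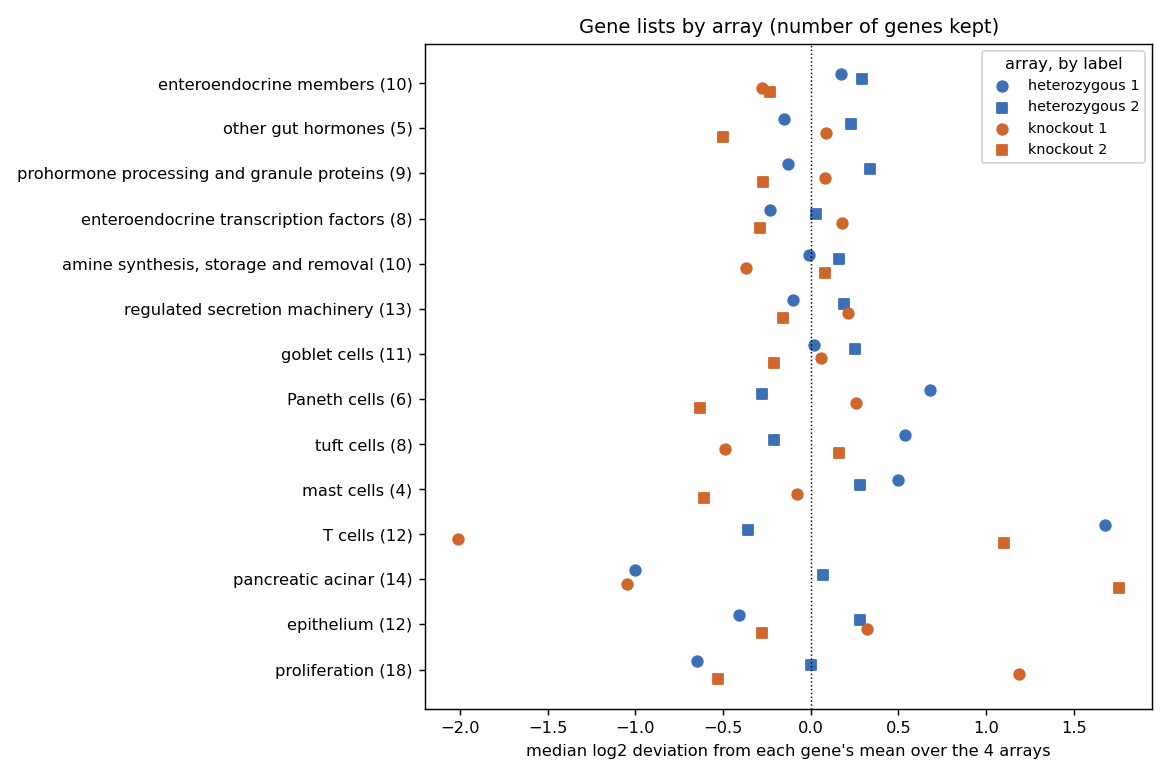
Median log2 deviation of the kept genes of each list from their own mean over the 4 arrays, for each array (blue for the label heterozygous, orange for knockout; circles replicate 1, squares replicate 2). The enteroendocrine members have both blue points (0.17 and 0.29) to the right of both orange points (−0.28 and −0.23), while T cell genes are split with heterozygous 1 and knockout 2 at 1.68 and 1.10.

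Markers of other cell types were read beside the hormone genes, and their part in the differences was not tested. Mast cells can also make serotonin. Of their 12 markers 4 were kept, and the protease genes Mcpt1 (4.14, 2.31, 0.768 and 0.558) and Mcpt2 (5.05, 4.57, 2.60 and 1.27) were lower on both arrays labelled knockout. The other 2 kept markers had higher means there, with groups that overlapped: Kit had 1.12, 1.61, 2.34 and 1.37, and Gata2 had 1.77, 0.594, 1.38 and 2.14. The summed signal of the 12 was 14.1 to 14.8 on the arrays labelled heterozygous and 8.51 to 10.5 on those labelled knockout. Without Mcpt1 and Mcpt2, the other 10 summed to 5.62 to 7.20 and 6.68 to 7.09. The mast cell peptidase gene Cpa3 was not kept and had 0.570, 1.06, 1.22 and 0.193.

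Goblet cells, which share secretory progenitors with enteroendocrine cells, had 4 of 11 genes lower on both arrays labelled knockout and a median of −0.15. The 4 became 1 after quantile normalization. Their summed signal was 2010 to 2110 on the arrays labelled heterozygous and 1610 to 2120 on those labelled knockout. Of 6 Paneth cell genes 0 had groups that did not overlap, and their median was −0.51. Of 8 tuft cell genes 2 were lower on both arrays labelled knockout (0 after quantile normalization), and their median was −0.31.

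Pancreatic islets also make Gcg, Sst, Pyy and granins. Of 10 islet markers 2 were kept, Iapp and Slc2a2, the latter also a gene of absorptive cells. Iapp had 2.77, 1.63, 0.587 and 1.77, and Slc2a2 had 224, 153, 53.1 and 198. Both were highest on heterozygous 1 and lowest on knockout 1, as Sst was. Insulin, Ins2, had 0.421, 0.313, 0.787 and 0.485, below the array median on all 4 arrays, and pancreatic polypeptide, Ppy, had 0.527, 0.828, 0.619 and 0.180. Of 14 kept acinar genes 11 were highest on knockout 2, 2 on heterozygous 1 and 1 on knockout 1, with Cpa1 at 0.079, 0.166, 0.089 and 8.88 and a summed signal of 151 on knockout 2 against 51.6 to 60.3 on the other arrays. None of the 10 enteroendocrine genes was highest on knockout 2. Of the 16 neuron markers 2 were kept, Ret (1.35, 2.43, 1.72 and 1.61) and Nos1 (1.74, 1.80, 1.90 and 2.22). Nos1 was higher on both arrays labelled knockout. Of those not kept, Elavl4 and Stmn2 were below the array median on every array. Prph (0.902, 1.83, 0.890 and 0.210) was lower, and Uchl1 (0.147, 0.104, 0.700 and 0.666) higher, on both arrays labelled knockout. Phox2a was also lower on both, and Tubb3, Vip, Hand2 and Nefm were also higher. These further genes lay near or below the array median and were picked after their values were seen.

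T cell genes were highest on heterozygous 1 and knockout 2 at 12 of 12 kept genes, with a summed signal of 109 to 525 on the arrays labelled heterozygous and 17.3 to 332 on those labelled knockout. Their median log2 difference by label was −1.18. Proliferation genes were highest on heterozygous 2 and knockout 1 at 17 of 18 in deposited values and 7 of 18 after quantile normalization. After it, 8 of 18 were higher on both arrays labelled knockout (background 11.7%), where 1 of 18 was so in the deposited values. This division by label is the one the 5 enteroendocrine genes showed in the lower direction, and its part in their difference was not tested. Of markers of position, 10 of 12 proximal genes had a lower mean by label, with a median of −0.18, and 4 of 6 distal genes did, with a median of −0.15. The 3 brightest proximal genes were Fabp1 (707, 770, 910 and 582), Apoa4 (543, 512, 525 and 416) and Cyp3a11 (524, 342, 38.4 and 401). Cyp3a11 was thus very low on knockout 1 alone. Groups did not overlap for 2 proximal genes, both lower. These became 1 after quantile normalization and 0 with the 75th percentile of the arrays set equal. Of 6 distal genes 0 were lower and 1 higher on both arrays labelled knockout.

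The genes whose profile over the 4 arrays was most like that of a member were found by the root mean square difference of centred log2 values, among probe sets with an SD of at least 0.5. For Chga these were Ccl6 (19.0, 19.5, 9.59 and 10.9) and Cyp2j6 (56.0, 65.2, 31.4 and 34.1), each 0.181 away. For Sct they were Rnf213 (16.9, 35.8, 15.2 and 16.4) at 0.03 and Slc38a9 at 0.039. For Cck they were 2010308F09Rik at 0.164 and Tmem161b at 0.169, and for Tph1 they were Tmf1 at 0.25 and Pank3 at 0.258. With 4 arrays and 6365 or more candidates, this likeness is a description only, and Chga, Cck and Tph1 were themselves below that SD.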

How the data were processed

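Gene expression was measured in 4 samples on one-colour Affymetrix arrays. Per the submitters' processing notes the authors made the signals with MAS5, version not given in the sources used here. These deposited values are linear intensity values, 1 per probe set and array, with array medians of 0.996 to 0.998. No source used here states that rescaling, and no detection calls were used here.

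Gene names came from the platform annotation, using 34945 probe sets with 1 gene and none of the 932 with several. The 9160 others were unnamed here. The Entrez identifiers of all 10 members matched RefSeq (GRCm38.p6). Values were taken as log2(value + 0.32), the pseudocount being the 25th percentile of all values, so folds of dim probe sets are understated. Groups were compared by label with limma 3.58.1 in R 4.3.3 (eBayes with a trend, Benjamini-Hochberg over 22519 kept probe sets). The fit was tested on simulated data. An exact permutation test was not used, since 0.333 is the smallest p that 2 against 2 arrays allow.

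The members and lists were chosen with earlier results of these data known. The text names every member. Of other lists it gives counts and some genes that were preset by name or among the 3 brightest, and every kept mast cell marker. It says where another gene was picked outside this rule or after its values were seen. A list gene is read at its brightest kept probe set. Pseudocount, filter, scaling, variance model, threshold, averaging of probe sets, replicate block and each array left out were varied.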

Additional observations from a re-analysis of the deposited data

Results flagged for a closer look

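For 5 genes the difference by label had opposite signs in the replicate 1 arrays, which had a male pattern, and the replicate 2 arrays, which had a female one. This is 1 array per label and sex pattern, and the difference was not tested. On the log2 scale, replicate 1 minus replicate 2 was −1.41 for Gip (−1.18 and 0.23), −1.12 for Sst (−1.03 and 0.09), 2.31 for Pyy (0.77 and −1.54), 0.62 for Tph1 (0.19 and −0.43) and 0.16 for Gcg (0.10 and −0.06). The signs of Gip, Sst and Pyy were the same under both other scalings. After quantile normalization Gcg had −0.31 and 0.24 and Tph1 −0.31 and 0.02, with both signs turned, and with 75th percentile scaling Tph1 was lower in both, at −0.22 and −0.06. The median of all kept genes also differed in the sense of Pyy, Tph1 and Gcg, at 0.40 and −0.40 in the deposited values.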

How the results depend on the processing

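By limma, 0 members passed under every alternative run (1 at an unadjusted p under 0.05 in the chosen setting), with pseudocounts of 0.1 and 1, no filter, only the brightest 25% of probe sets, quantile or 75th percentile scaling, no trend, a threshold of 0.10 or an array left out. Over all probe sets the count of 0 became 1 among the brightest 25%, 24 without knockout 1 and 240 without knockout 2. The member median of −0.47 stayed between −0.50 and −0.45 under the settings that kept all arrays. With 1 array left out it ranged from −0.54 to −0.34, while that of all kept probe sets ranged from −0.20 to 0.20. The 5 members lower on both arrays labelled knockout were 4 among the brightest 25%, where Nts was not tested, and 6 to 7 with an array left out, when 3 arrays make overlap rarer.

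The difference of Gcg turned to −0.04 under quantile normalization and −0.01 under 75th percentile scaling. With an array left out, Gcg ranged from −0.20 to 0.24, Pyy from −1.34 to 0.58, Gip from −1.02 to 0.06 and Tph1 from −0.36 to 0.12. The values that turned came without heterozygous 2 (Gcg, Pyy), knockout 1 (Gcg, Gip) or knockout 2 (Tph1), and the cause was not tested.

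With the replicate block, 0 members passed and the median was −0.47. The labels do not say that a number marks paired samples, and the within-label differences correlated at −0.511 over kept probe sets. A block of crossed pairs, chosen after the data were seen, gave 0 calls. Overlap of groups has no value under a block. The number of arrays and the lack of detection calls limit what can be said of dim genes such as Nts.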
